A study of Mus musculus with 9 samples.

Results

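The potassium channel genes described here are the genes on the array whose symbols mark a potassium channel pore or auxiliary subunit (Kcn, further letters and a number). The array named 62 such genes through 90 probe sets that point to 1 gene each. Of these, 7 lay above their own array's median probe set in at least 3 of 9 arrays: Kcnk2, Kcnk7, Kcnj15, Kcnu1, Kcnh1, Kcne4 and Kcnmb4. Kcnj8 lay above the median of 2 arrays, so it was named with the rule as an example but fell just outside it. Its values are given beside those of the 7.

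RNA came from sorted back skin cells of virgin female CD1 mice that carried the reporters Lef1RFP and K14H2BGFP, a red label tied to Lef1 and a green histone label tied to keratin 14. Dermal papilla cells, the mesenchymal cluster at the follicle base, were red, not green, and depleted of CD45, CD117 and integrin alpha 7, and per the titles of CD34. Hair germ cells, the epithelial cluster beside the papilla, were green, CD34 negative and P-cadherin high, and bulge cells, from the stem cell niche, were green, CD34 positive and P-cadherin low. Each of the 3 populations was hybridised once on postnatal days 43, 56 and 69, named early, middle and late telogen (the resting phase of the hair cycle), so every group shares both reporters and each population and day is 1 array. The number of mice behind an array is not stated in the sources used here.

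Potassium channels let potassium leave or enter cells along its gradient and set the resting membrane potential. Inward rectifiers (Kcnj) and 2-pore-domain channels (Kcnk) carry current at rest, voltage-gated and calcium-activated channels open on depolarisation or on calcium entry, and auxiliary subunits (Kcne, Kcnmb, Kcnab, Kcnip) tune the pores. Channels of the ATP-sensitive type, built from Kir6 pores such as Kcnj8 and a sulfonylurea receptor, are the known target of the hair growth drug minoxidil.

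To show the DNA at the transcription starts of 4 of the genes with large differences, 300-base windows were taken from RefSeq on build GRCm38.p6. They ran from 250 bases before to 50 bases after the start. Of the 7 genes, 6 had at least 1 window in that table and Kcnk2 had 4, of which the 1 that held any of the boxes below is shown. The other 3 held none, and 33, 3 and 6 CpG dinucleotides. The arrays do not tell which start was used. Capitals mark the hexamer TATAAA of the TATA box, the letters CCAAT of the box named after them and the hexamer GGGCGG of the GC box, each searched on both strands, and no match overlapped another. Kcnk2 and Kcnj15 were lower in dermal papilla than in epithelium, and Kcnmb4 and Kcnj8 were higher.
Kcnk2, chr1:189343658-189343957, minus strand: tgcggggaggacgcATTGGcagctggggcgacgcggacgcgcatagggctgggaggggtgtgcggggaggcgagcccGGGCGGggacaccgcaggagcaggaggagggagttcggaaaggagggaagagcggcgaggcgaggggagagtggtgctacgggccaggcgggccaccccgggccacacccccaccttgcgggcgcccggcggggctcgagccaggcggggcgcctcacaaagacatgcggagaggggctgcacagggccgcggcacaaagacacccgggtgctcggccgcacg
Kcnj15, chr16:95257308-95257607, plus strand: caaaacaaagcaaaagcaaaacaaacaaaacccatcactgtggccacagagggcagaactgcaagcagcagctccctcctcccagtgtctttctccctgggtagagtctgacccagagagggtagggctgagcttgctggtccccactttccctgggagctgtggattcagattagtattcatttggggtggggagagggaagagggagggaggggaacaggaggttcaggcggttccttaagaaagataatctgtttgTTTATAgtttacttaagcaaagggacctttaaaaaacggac
Kcnmb4, chr10:116473474-116473773, minus strand: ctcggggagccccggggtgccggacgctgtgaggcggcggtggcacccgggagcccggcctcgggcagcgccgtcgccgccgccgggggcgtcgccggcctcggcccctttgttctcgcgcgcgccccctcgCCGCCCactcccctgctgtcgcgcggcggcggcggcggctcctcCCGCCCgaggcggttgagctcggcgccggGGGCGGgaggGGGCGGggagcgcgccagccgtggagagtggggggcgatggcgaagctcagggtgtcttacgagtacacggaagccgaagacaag
Kcnj8, chr6:142571565-142571864, minus strand: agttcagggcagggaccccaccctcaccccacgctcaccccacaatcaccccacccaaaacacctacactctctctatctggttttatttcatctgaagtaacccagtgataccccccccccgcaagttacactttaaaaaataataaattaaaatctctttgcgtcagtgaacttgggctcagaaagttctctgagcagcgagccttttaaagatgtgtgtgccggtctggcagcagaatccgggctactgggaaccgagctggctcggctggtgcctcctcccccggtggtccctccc
The Kcnmb4 window held 4 GC boxes and 48 CpG dinucleotides, and the Kcnk2 window held 1 GC box, 1 CCAAT box and 33 CpG dinucleotides. The Kcnj15 window held 1 TATA box hexamer, on the opposite strand and after the start, and 2 CpG dinucleotides. The Kcnj8 window held none of these boxes and 9 CpG dinucleotides. Kcne4, higher in dermal papilla by more than Kcnmb4 was, had 1 window, not shown, with none of these boxes and 9 CpG dinucleotides. Over all 32851 windows the median was 7 CpG dinucleotides, and 13.6% held a TATA box, 37.4% a CCAAT box and 35.7% a GC box. No box was thus common to all 4 windows shown, while the Kcnk2 and Kcnmb4 windows both held GC boxes.

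Most potassium channel genes were dim in all populations. Of the 62 genes, 49 lay above the median of no array, 4 above that of 1, 2 above that of 2 and 7 above that of at least 3. That is 11.3% of the potassium channel genes passing, where 62.9% of all 12393 named genes did. By family, 2 of 8 genes for 2-pore-domain channels, 1 of 13 inward rectifiers, 1 of 18 voltage-gated pore genes and 2 of 15 auxiliary subunits passed. Of 6 genes grouped as calcium- or sodium-activated, 1 passed, the sperm channel gene Kcnu1. That group was set by symbol and not by how each channel opens. Its other genes, Kcnma1, Kcnn1, Kcnn2, Kcnn3 and Kcnn4, did not pass. Neither of the silent voltage-gated modifiers, Kcns1 and Kcns2, passed. Probe sets differ in how brightly they bind, so a probe set below the median does not show that the gene is silent. Just inside the limit, at 3 arrays, were Kcnk2, Kcne4 and Kcnh1, and just outside it, at 2 arrays, were Kcnj8 and Kcnma1.

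**Figure D1:**
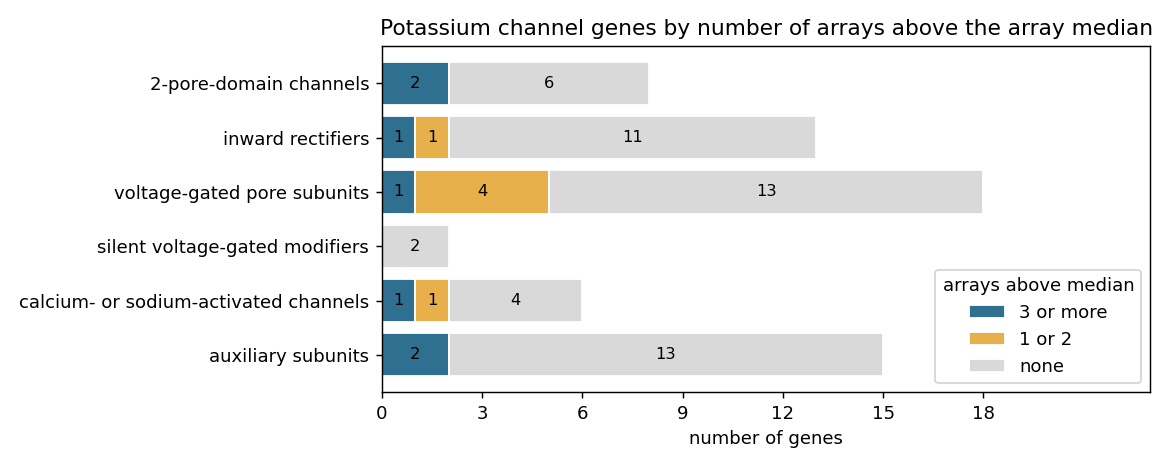
Horizontal bars count the 62 potassium channel genes of each family by the number of the 9 arrays in which any probe set of the gene lay above that array's median. In every family the genes above the median of no array outnumber the rest, and 7 genes in all reach 3 arrays.

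Values below are log2(MAS5 signal + 16), where a signal of 0 would stand at 4 and array medians ran from 5.81 to 6.18. Folds are on this scale and understate the change of dim genes. Array quality differed: the GAPDH 3'/5' signal ratio, which rises with truncated RNA, was 2.97 to 5.09 in 6 arrays but 6.62 in dermal papilla on day 43, 8.34 in hair germ on day 43 and 7.90 in hair germ on day 69. Of 10 keratinocyte markers, 10 lay above the median of all 3 arrays in hair germ and in bulge and 2 did in dermal papilla. Their summed signal was 1183 in dermal papilla on day 43 and 283.5 and 296.2 on days 56 and 69, against 42366 to 67421 in hair germ and 37755 to 40282 in bulge. In these bulk samples, fewer cells of a type and less RNA per cell cannot be told apart.

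The first comparison asked how dermal papilla differed from the follicle epithelium, taken as the mean of hair germ and bulge. The auxiliary subunit genes Kcne4 and Kcnmb4 were higher in dermal papilla, and the pore genes Kcnk2, Kcnj15, Kcnk7, Kcnu1 and Kcnh1 were lower. All 7 passed the limma test (adjusted p below 0.05), 2 higher and 5 lower, where 40.3% of the 7796 genes tested passed, 16.6% higher and 23.7% lower. A gene that entered only through the side where it is bright had to differ. Kcnk2, Kcnj15, Kcnk7, Kcnu1 and Kcnh1 were above the median in epithelial arrays alone, and Kcne4 in dermal papilla arrays alone. The median difference was -0.88 over the 7 genes and -0.10 over all genes tested. Given that selection, neither the count nor the median of the 7 lends support of its own.

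Kcnk2 encodes TREK-1, a 2-pore-domain channel that carries background current and responds to stretch. It stood at 4.60, 4.46 and 4.37 in dermal papilla on days 43, 56 and 69, at 5.70, 6.06 and 4.71 in hair germ and at 10.48, 10.65 and 10.05 in bulge. As linear signal, bulge arrays read 1415, 1592 and 1044.5, while no other array exceeded 50.9. All 3 bulge arrays thus stood far above the other 6, and only bulge arrays exceeded their own median. Dermal papilla was lower than bulge by a log2 of -5.92 ± 0.27 (SE, limma adjusted p = 5.93e-08, lower on 3 of 3 days). Dermal papilla was also lower than hair germ, at -1.02 ± 0.27 (limma adjusted p = 0.0115). That smaller difference did not pass without the day 56 dermal papilla array (limma adjusted p = 0.0744), without the day 56 hair germ array (0.0631) or with a pseudocount of 64 (0.0759).

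Kcnj15 encodes the inward rectifier Kir4.2. It was at 4.33, 4.04 and 4.16 in dermal papilla on days 43, 56 and 69, at 6.40, 7.40 and 7.30 in hair germ and at 7.60, 7.57 and 8.67 in bulge. Every epithelial array was above its median and every dermal papilla array lay near the floor of the scale, so the groups did not overlap. The difference of dermal papilla from epithelium was -3.31 ± 0.28 (SE, limma adjusted p = 3.88e-06), and it passed under all 19 alternatives tried, from -5.88 to -1.81. Kcnj15 entered through its epithelial arrays alone, so a difference was built into the selection. The day 43 papilla array, which had the highest keratinocyte signal of the 3, also had their highest Kcnj15 and Kcnk2 levels, and the part of epithelial cells in these was not tested.

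**Figure D2:**
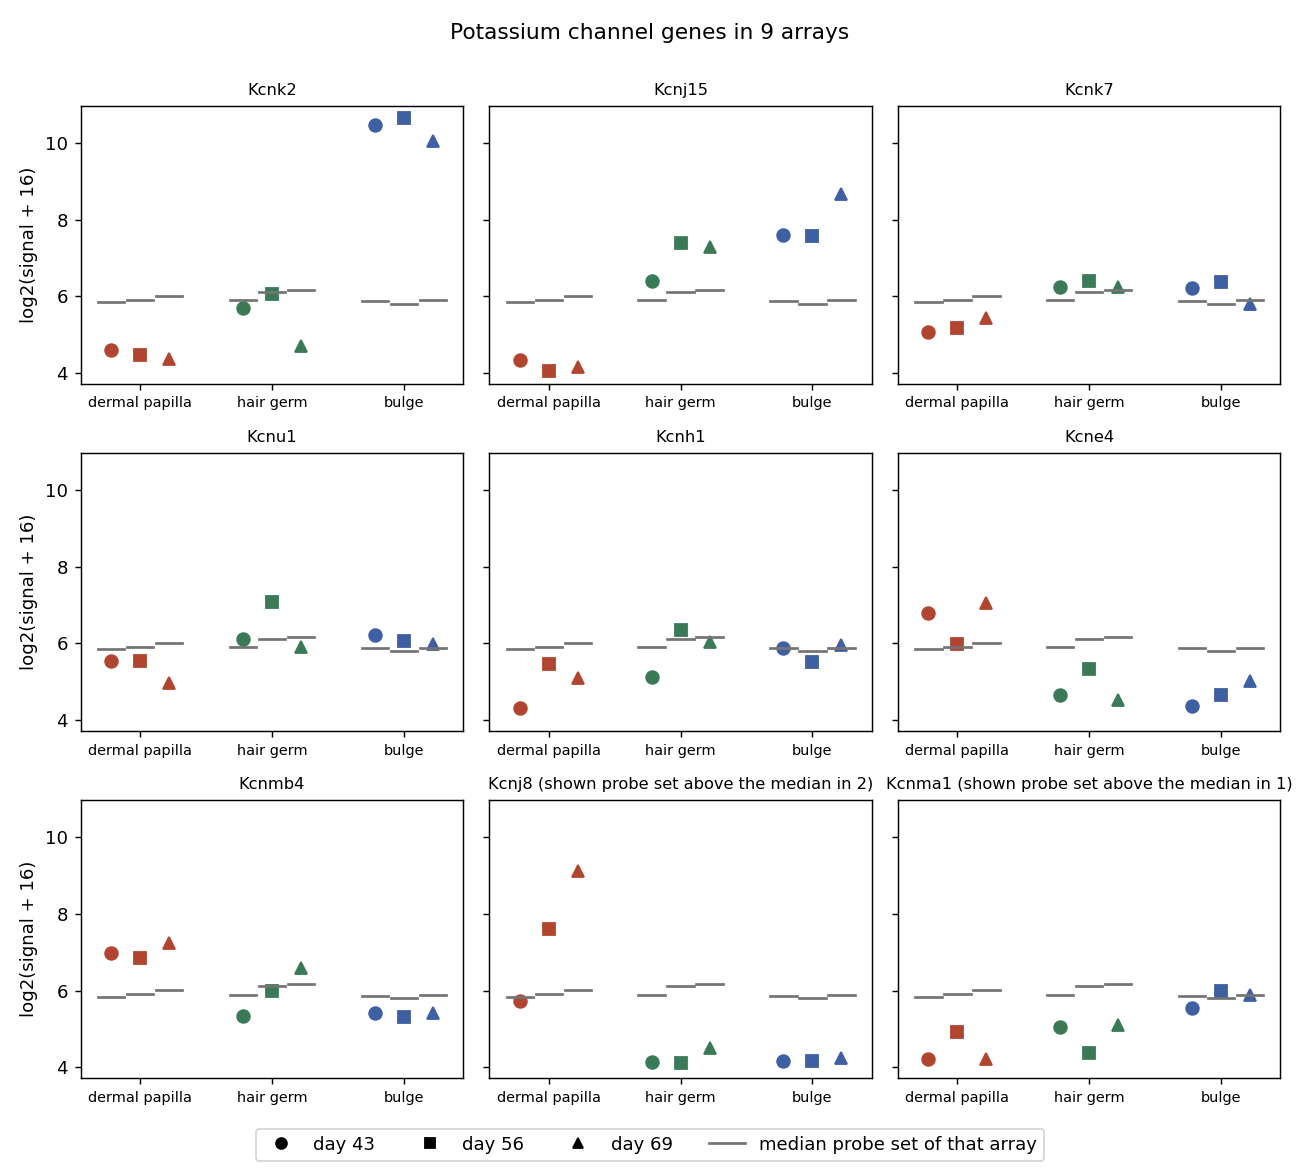
Each point is 1 array, with log2(signal + 16) on the vertical axis, populations along the horizontal axis, marker shape for the day, and a grey bar at that array's median probe set. Kcnk2 stands above 10 in the 3 bulge arrays alone, Kcnj15 is above the median in all 6 epithelial arrays, and Kcnj8 spreads from 5.73 to 9.13 in dermal papilla while it stays at or below 4.50 elsewhere.

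Kcnk7, Kcnu1 and Kcnh1 had smaller differences than Kcnk2 and Kcnj15, each under 1 on the log2 scale. Kcnk7, another 2-pore-domain gene, ran from 5.08 to 5.42 in dermal papilla, from 6.23 to 6.40 in hair germ and from 5.79 to 6.38 in bulge, so all papilla arrays lay below all epithelial arrays. Its difference was -0.99 ± 0.23 (SE, limma adjusted p = 0.00595). Kcnu1, whose product is a sperm potassium channel in mouse, was at 5.53, 5.54 and 4.96 in dermal papilla, at 6.12, 7.09 and 5.91 in hair germ and at 6.22, 6.05 and 5.98 in bulge. All papilla arrays were again the lowest, with a difference of -0.88 ± 0.26 (SE, limma adjusted p = 0.018).

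Kcnh1 encodes the voltage-gated channel EAG1. It was at 4.30, 5.47 and 5.10 in dermal papilla on days 43, 56 and 69, at 5.13, 6.36 and 6.04 in hair germ and at 5.87, 5.50 and 5.96 in bulge. The groups overlapped, since the day 43 hair germ array was below the day 56 papilla array. Its difference of -0.85 ± 0.30 (SE, limma adjusted p = 0.0414) did not pass in 11 of 18 alternatives, where the adjusted p reached 0.18. Without the 3 arrays of high GAPDH 3'/5' ratio, which leaves hair germ its day 56 array alone, the difference of Kcnk7 was -0.90. Kcnu1 did not pass without the day 56 or day 69 papilla array (limma adjusted p = 0.097 and 0.0734) or the day 43 bulge array (0.050).

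Kcne4 encodes a single-span subunit that damps voltage-gated channels. It was at 6.80, 5.996 and 7.05 in dermal papilla on days 43, 56 and 69, at 4.64, 5.32 and 4.52 in hair germ and at 4.37, 4.66 and 5.03 in bulge. Only the papilla arrays exceeded their medians, and no epithelial array reached the lowest of them. The difference was 1.86 ± 0.32 (SE, 3.62-fold, limma adjusted p = 0.000785), with hair germ alone 1.79 and with bulge alone 1.93. Without the 3 arrays of high GAPDH 3'/5' ratio, which leaves hair germ its day 56 array alone, the difference from hair germ was 0.84.

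Kcnmb4 encodes the beta 4 subunit of the large-conductance calcium-activated channel. It was at 6.98, 6.85 and 7.25 in dermal papilla on days 43, 56 and 69, at 5.33, 5.99 and 6.59 in hair germ and at 5.40, 5.32 and 5.41 in bulge. Papilla arrays were the highest on every day, and the day 69 hair germ array came closest to them. The difference from epithelium was 1.36 ± 0.25 (SE, 2.57-fold, limma adjusted p = 0.00126). The difference from hair germ, 1.06 ± 0.29 (limma adjusted p = 0.0139), did not pass without the day 43 papilla array (0.0632) or the day 43 hair germ array (0.0705). That difference was 0.95 without the 3 arrays of high GAPDH 3'/5' ratio, which leaves hair germ its day 56 array alone.

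The pore gene of that channel, Kcnma1, did not share the pattern. Its brighter probe set was at 4.22, 4.91 and 4.21 in dermal papilla, at 5.05, 4.38 and 5.11 in hair germ and at 5.55, 5.99 and 5.88 in bulge, and it lay above the median in 1 array. With no filter on dim probe sets, dermal papilla was lower than bulge by a log2 of -1.36 ± 0.31 (SE, limma adjusted p = 0.00855), and the call ended without the day 69 papilla array (0.0568). The second probe set had its highest value, 6.35, in hair germ on day 69, so the probe sets disagreed there.

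**Figure D3:**
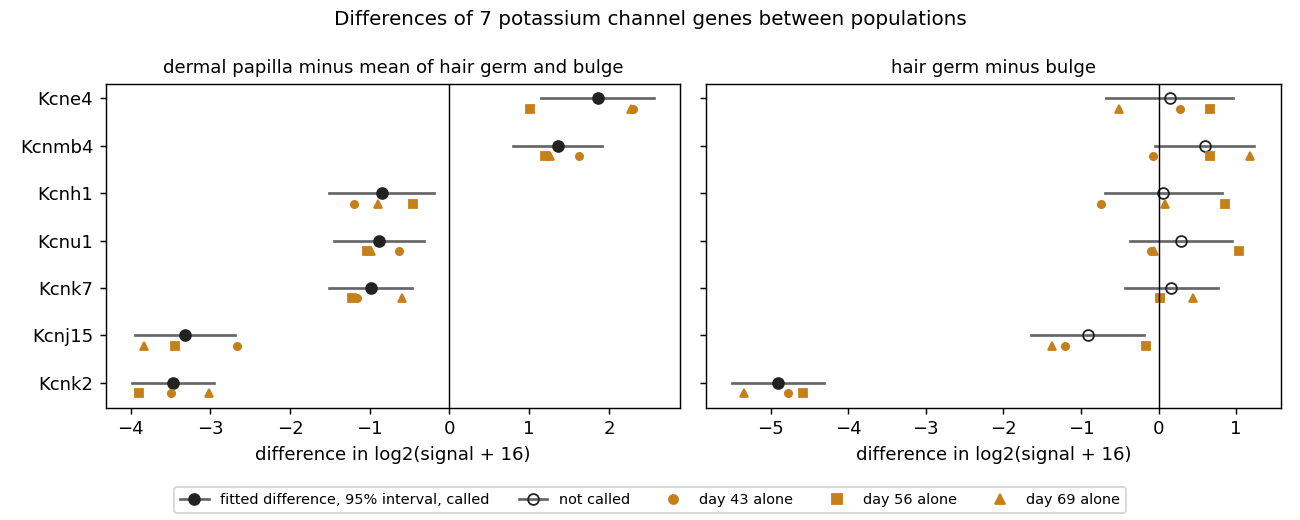
Black circles give the fitted log2 difference of each of 7 genes with its 95% interval (filled where the adjusted p is below 0.05), and orange markers give the difference on each single day, for dermal papilla minus epithelium (left) and hair germ minus bulge (right). On the left all 7 genes are called, from -3.47 for Kcnk2 to 1.86 for Kcne4, while on the right Kcnk2 alone is called, at -4.90.

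The second comparison asked how the hair germ differed from the bulge. Kcnk2 was lower in hair germ by a log2 of -4.90 ± 0.27 (SE, 29.9-fold, limma adjusted p = 4.14e-06) and was lower on 3 of 3 days. It was the 1 gene of 7 that passed, where 19.8% of all genes tested passed, 12.2% as higher and 7.56% as lower. Kcnk2 entered through its 3 bulge arrays alone, so a difference here was built into the selection and the count supports nothing. The value ran from -5.58 to -3.88 over 18 alternatives, all of which passed. Kcnj15 was at -0.91 ± 0.33 (limma adjusted p = 0.0757), lower on 3 of 3 days, and it passed after quantile normalization (-1.03, 0.0416), after median centring (-1.12, 0.0274), without the day 43 papilla array (0.0493) and without the day 56 hair germ array (0.0449).

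The other 5 genes were between 0.06 and 0.59, and none passed. The 95% interval was -0.68 to 0.96 for Kcne4, -0.05 to 1.24 for Kcnmb4 and -0.44 to 0.76 for Kcnk7, which do not show that the populations were alike. Scaling mattered for this contrast: of all genes, 952 were higher and 589 lower as deposited, 694 and 794 after quantile normalization, and 613 and 941 after median centring. The median of all genes was 0.10 as deposited, -0.05 after quantile normalization and -0.11 after median centring. For dermal papilla minus hair germ, the median of all genes was -0.15, 0.01 and 0.00 under the same settings, and 6 of the 7 genes passed under each, 2 higher and 4 lower as deposited, where 39.3% of all genes passed, 15.5% higher and 23.8% lower. That contrast had 1207 genes higher and 1855 lower as deposited, 1526 and 1505 after quantile normalization and 1451 and 1482 after median centring. Against bulge, 5 of 7 passed in dermal papilla, 2 higher and 3 lower, where 35.1% of all genes did, 16.1% higher and 19% lower. The selection described for the first comparison bears on both dermal papilla counts.

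Markers of other cells differed between the epithelial sorts. Of 10 leukocyte markers, 2 lay above the median of all 3 arrays in hair germ and 3 in bulge, with a summed signal of 292 to 622 in hair germ and 628 to 892 in bulge. Of 7 melanocyte markers measured, 4 did so in hair germ and 2 in bulge, with sums of 2291 to 5004 in hair germ and 2312 to 3014 in bulge. These sums hid opposite directions. Dct, Tyrp1 and Pmel had log2 levels of 8.12 to 11.31 in hair germ and 4.61 to 6.43 in bulge. Mitf went the other way, at 8.78 to 9.44 in hair germ and 11.06 to 11.49 in bulge. Schwann cell and glia markers (4 measured) summed to 981 to 2252 in hair germ and 791 to 949 in bulge. Erbb3 was the brightest of them, at log2 levels of 9.71 to 10.97 in hair germ and 9.35 to 9.58 in bulge. Mbp overlapped, at 6.74 to 7.69 and 7.09 to 7.56. S100b was at 4.62 to 5.41 in both sorts and at 7.01 to 7.41 in dermal papilla, and Gfap was below the epithelial medians. Merkel cell markers (5) summed to 125 to 395 in hair germ and 71.4 to 88.8 in bulge. Of 6 neuron markers, 0 lay above the median of any array. The part of these cells in the differences of Kcnk2 and Kcnj15 was not tested.

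The third comparison asked what changed between days in all populations together. No potassium channel gene passed by limma, 0 of 7 for day 69 against day 43 and 0 of 7 for day 56 against day 43, where 0% of all 7796 genes passed. At an unadjusted p below 0.05 the counts were 0 of 7 in both, beside 565 and 398 of all genes. The smallest p values for day 69 were those of Kcnk2 at -0.55 ± 0.27 (SE, limma adjusted p = 0.715), Kcnj15 at 0.60 ± 0.33 (0.744) and Kcnmb4 at 0.51 ± 0.29 (0.754). Median centring moved the median of all genes for day 69 from 0.07 to -0.09. For day 56 the smallest were those of Kcnh1 at 0.68 ± 0.34 (SE, limma adjusted p = 0.845), Kcnu1 at 0.27 and Kcnj15 at 0.23.

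Within dermal papilla, Kcnj8 differed most between days. Kcnj8 encodes Kir6.1, the pore of an ATP-sensitive channel known from vascular smooth muscle and pericytes. Its level was 5.73, 7.61 and 9.13 on days 43, 56 and 69 in dermal papilla, against 4.14, 4.10 and 4.50 in hair germ and 4.16, 4.16 and 4.24 in bulge. As linear signal the papilla arrays read 37.1, 179.8 and 544 on the 3 days, and no epithelial array exceeded 6.64. The level was thus higher on each later day in papilla, and every papilla array stood above every epithelial one.

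With 1 array per day, the papilla difference of 3.40 between days 69 and 43 (10.6-fold) has no replicate and no test. Over all 12393 genes, 6.06% differed at least 2-fold between these papilla arrays with the higher one above its median, 4.34% upward, and Kcnj8 had the 8th largest upward difference of 538. The difference kept its sign under the 4 other scalings and pseudocounts tried, from 2.59 to 3.84. In a fit with no filter on dim probe sets, dermal papilla was higher than epithelium by 3.27 ± 0.46 (SE, limma adjusted p = 0.000351). There 9 of the 62 potassium channel genes passed, where 26.1% of all genes did. In the same fit 2 of 62 passed for hair germ against bulge, both lower, where 11.4% of all genes did, 7.38% higher and 4.04% lower. Against hair germ alone 8 of 62 passed in dermal papilla (25.6% of all genes), and against bulge alone 10 of 62 (22.1%). For Kcnj8 in dermal papilla against epithelium, leaving out 1 array at a time in this fit gave 2.53 to 4.12 (limma adjusted p = 2.12e-05 to 0.00436).

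Other measures moved across the same 3 papilla arrays. The GAPDH 3'/5' ratio was 6.62, 4.13 and 3.77 on days 43, 56 and 69. Of 10 leukocyte markers, 0 lay above all 3 papilla medians, and their summed signal was 128, 303 and 655. Laptm5 made up most of the later sums, with signals of 19.3, 238 and 522 (log2 levels of 5.14, 7.99 and 9.07), while the other 9 markers summed to 108, 64.8 and 133. Ptprc, which encodes CD45, was at 4.52, 4.04 and 4.49 there, below the median on each day. Of 9 dermal papilla markers measured, 8 lay above all 3 papilla medians, with a summed signal of 20174, 19316 and 23702. Among them, Fgf7 had log2 levels of 7.97, 9.23 and 9.89, and Crabp1 of 13.25, 12.98 and 12.91.

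Of 11 pericyte and smooth muscle markers, 4 lay above the median of all 3 papilla arrays (Pdgfrb, Cspg4, Acta2 and Notch3) and 6 above none, among them Myh11, Des, Mcam and Cnn1. Cspg4 and Notch3 were also bright in hair germ and bulge, at 7.37 to 9.07. Their summed signal was 1533, 1237 and 1731, and the pericyte gene Rgs5 was at 5.14, 6.50 and 6.41. Of 8 endothelial markers, 7 lay above no papilla median, with sums of 120 to 169. The part of RNA quality and of other cells in the Kcnj8 values was not tested.

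**Figure D4:**
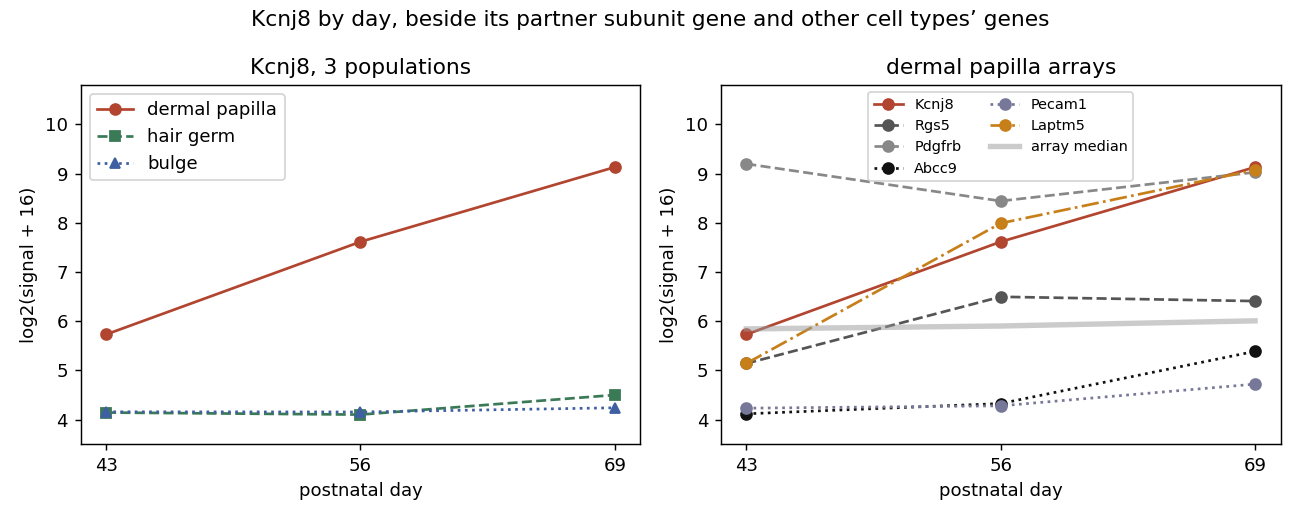
Lines join single arrays by postnatal day, with log2(signal + 16) on the vertical axis, for Kcnj8 in 3 populations (left) and for Kcnj8 beside other genes in the dermal papilla arrays (right). Kcnj8 goes through 5.73, 7.61 and 9.13 in dermal papilla, Laptm5, 1 of 10 leukocyte markers, goes through 5.14, 7.99 and 9.07 while the other 9 sum to signals of 108, 64.8 and 133, and Abcc9 stays below the array median.

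A further 6 genes differed at least 2-fold between days within a population with the higher array above its median. In dermal papilla, Kcne4 was 1.05 higher on day 69 than on day 56. In hair germ, Kcnh1 was 1.23 and Kcnj15 1.00 higher on day 56 than on day 43, Kcnmb4 was 1.26 and Kcna1 1.48 higher on day 69 than on day 43, and Kcnu1 was 1.18 lower on day 69 than on day 56 (log2 difference -1.18). In bulge, Kcnj15 was 1.07 higher on day 69 than on day 43. Kcnj15 was also 1.10 higher there than on day 56. Below the medians, Kcnk2 was at -1.35 in hair germ for day 69 minus day 56, and Kcnh1 at 1.17 in dermal papilla for day 56 minus day 43. These differences have no replicate. Of all genes, by the same rule with the higher array above its median, 5.89%, 9.15% and 8.77% differed as much in hair germ for days 56 against 43, 69 against 43 and 69 against 56, and 0.395%, 1.76% and 2.31% did in bulge. In dermal papilla the shares were 5.08%, 6.06% and 3%. Of the 62 potassium channel genes, in the same order of days, 2, 2 and 1 did in hair germ. In bulge 0, 1 and 1 did, and in dermal papilla 1, 1 and 2. Hair germ arrays of days 43 and 69 had the high GAPDH 3'/5' ratios given above, whose part was not tested.

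Genes that work beside potassium channels were examined as 5 lists with 54 genes, of which 40 were on the array and 16 bright enough to test. In dermal papilla against epithelium 7 of the 16 were higher and 5 lower, where 16.6% and 23.7% of all genes were (40.3% together). Fxyd1, Slc12a1, Cacna1g, Cacna1h and Cacna2d1 were above the median in the dermal papilla arrays alone. Fxyd3, Fxyd6 and Cacna2d2 were above it in epithelial arrays alone. A difference was built into their selection, so neither the count nor the median lends support of its own. In hair germ against bulge 6 were higher and 1 lower, where 12.2% and 7.56% of all genes were (19.8% together). Among the higher, Cacna1g (5.58 to 5.93 in hair germ, 4.07 to 4.26 in bulge) lay below the median in every epithelial array. So did Cacna2d1, at 4.93 to 5.31 in hair germ and 4.11 to 4.20 in bulge. The hair germ counts depended on scaling, with 3 higher and 2 lower after quantile normalization and 3 higher and 1 lower after median centring. The median difference over the 16 genes was 0.51 and 0.43 in these contrasts, against -0.10 and 0.10 over all genes tested.

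Subunits that pair with the channels were dim. None of the 4 measured genes Abcc8, Abcc9, Dpp6 and Lrrc26 was bright enough to test. Abcc9 encodes SUR2, the sulfonylurea receptor that pairs with Kir6.1, and it was at 4.12, 4.33 and 5.39 in dermal papilla on days 43, 56 and 69, at 4.05, 4.20 and 5.35 in hair germ and at 4.04, 4.07 and 4.49 in bulge. It lay below the median in all 9 arrays. The HCN genes Hcn2 and Hcn3, pacemaker cation channels, were below the median in all arrays as well.

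The small FXYD regulators of the sodium-potassium pump, which builds the potassium gradient, differed between mesenchyme and epithelium in both directions. Fxyd1 was at 9.30, 10.02 and 9.52 in dermal papilla and at 4.14 to 5.29 in epithelium, higher by 4.80 ± 0.23 (SE, limma adjusted p = 4.55e-08). Fxyd3 was at 5.84, 5.75 and 5.81 in dermal papilla and at 10.63 to 11.48 in epithelium, lower by a log2 of -5.39 ± 0.18 (limma adjusted p = 6.75e-09). Fxyd5 was higher in dermal papilla at 2.91, and the beta subunit gene Atp1b3 was lower at -1.29. Of 6 pump genes tested, 2 were higher and 3 lower in dermal papilla, where 16.6% and 23.7% of all genes were. Atp1b3 alone passed in hair germ against bulge (1.07, limma adjusted p = 0.0299, lost in 7 of 19 alternatives), where 19.8% of all genes did. The catalytic alpha subunits were not analysed here.

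Among cotransporters, Slc12a1, which encodes the sodium-potassium-chloride carrier NKCC2 known from kidney, was at 11.82, 9.36 and 9.59 in dermal papilla on days 43, 56 and 69 and at 4.09 to 4.97 in epithelium. The papilla arrays were all far above the epithelial ones, and the day 43 array was the highest. The difference was 5.67 ± 0.36 (SE, limma adjusted p = 4.41e-07). The widely expressed Slc12a2 and Slc12a4 were at 0.70 (limma adjusted p = 0.0645) and -0.68 (0.024, lost in 4 of 19 alternatives) in dermal papilla against epithelium. In hair germ against bulge they were at 1.02 (limma adjusted p = 0.0441, lost in 13 of 19 alternatives) and 0.96 (0.0191, lost in 4).

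Of 6 voltage-gated calcium channel genes tested, whose calcium entry opens large-conductance potassium channels, 4 were higher and 1 lower in dermal papilla. Of all genes tested, 16.6% were higher and 23.7% lower. The higher calls of Cacna1g, Cacna1h and Cacna2d1 were built into the selection, as given above. The T-type pore gene Cacna1g was higher by 3.75 ± 0.31 (SE, limma adjusted p = 3.14e-06), at 8.43, 7.90 and 9.74 in dermal papilla and at 4.07 to 5.93 in epithelium. Cacna1h was higher by 2.15 and the accessory subunit gene Cacna2d1 by 2.04. The L-type gene Cacna1c set hair germ apart, at 8.06, 7.48 and 7.46 in dermal papilla, 4.07, 4.21 and 5.32 in hair germ and 7.14, 7.54 and 7.06 in bulge. Hair germ minus bulge was -2.71 ± 0.36 for Cacna1c (SE, limma adjusted p = 0.000491). Dermal papilla minus bulge was 0.42 for Cacna1c and did not pass (limma adjusted p = 0.404).

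**Figure D5:**
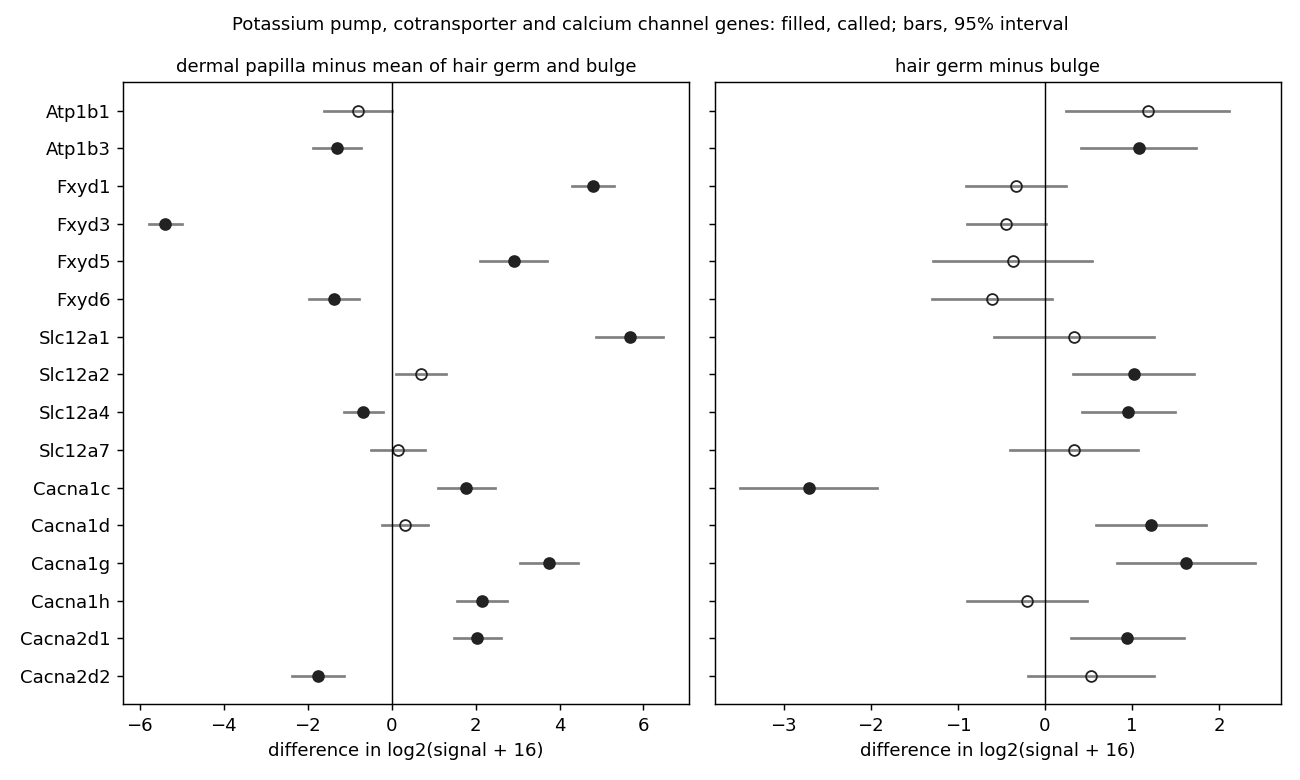
Circles give the log2 difference of 16 pump, cotransporter and calcium channel genes with the 95% interval, filled where the adjusted p is below 0.05, for dermal papilla minus epithelium (left) and hair germ minus bulge (right). Slc12a1 (5.67) and Fxyd1 (4.80) lie farthest up and Fxyd3 (-5.39) farthest down on the left, and Cacna1c (-2.71) is the 1 called as lower on the right.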

How the data were processed

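The authors deposited MAS5 signals from GCOS (linear intensity), per the submitters' processing notes. Versions and the scaling target are not given in the sources used here. RNA had 2 rounds of amplification, per the labels' protocols. After setting aside 64 control probe sets, log2(signal + 16) was taken without further scaling. Probe sets above their own array's median in at least 3 arrays were kept (12801), each gene represented by its brightest, which left 7796 of 12393 named genes. The platform annotation gave 20380 probe sets 1 gene, 691 several and 1555 none, and 20351 were matched to current symbols.

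limma 3.58.1 in R 4.3.3 fitted population and day as additive terms over the 9 arrays together, leaving 4 residual degrees of freedom. Variances were moderated by eBayes along a trend, with Benjamini-Hochberg adjustment over all genes tested. The 3 days of a population served as its replicates. Whether days or populations came from separate mice is not stated, so p-values measure only the spread between these arrays. The model was also run on simulated arrays with independent noise and known changes, which does not test the lack of replicates within a population and day. Precision is limited by how few arrays there are. All 9 values are shown for members called and at least 2-fold apart in dermal papilla against epithelium or hair germ against bulge, and for the smallest p by day. Partner genes were named up to 4 per list. The members and lists were chosen with earlier results of these data known. Alternatives changed the scaling, pseudocount, filter, probe set rule, spread model, day term and arrays used.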

Additional observations from a re-analysis of the deposited data

How the results depend on the processing

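With a filter of 6 or more arrays, which leaves Kcnj15 alone, 1 gene passed in dermal papilla against epithelium, 1 against hair germ, 1 against bulge and 0 in hair germ against bulge. Hair germ against bulge had 2 calls after quantile normalization and 2 after median centring. Dropping the 3 arrays of GAPDH 3'/5' ratio above 6 was a setting chosen after seeing the data. It left hair germ its day 56 array alone, so no count of calls is given for it. Leaving out 1 array gave 5 to 7 calls against epithelium, 1 to 2 in hair germ against bulge, 3 to 6 for dermal papilla against hair germ (3 without the day 56 papilla array), 4 to 5 against bulge and 0 by day. Without the day term (no replicate block) 6 genes passed against epithelium, Kcnh1 missing (limma adjusted p = 0.0576), and no other population call changed. Genes 2-fold apart between days, with the higher array above its median, numbered 7 as deposited. They numbered 5 after quantile normalization, 4 after median centring, 10 with a pseudocount of 1 and 1 with a pseudocount of 64. The counts in this section stand without shares over all genes, so they tell only how the calls move with the setting. The sign turned only for differences that were not called. In hair germ against bulge, Kcne4 was at -0.0037 and -0.065, Kcnh1 at -0.16 and -0.15, and Kcnk7 at -0.042 and -0.049, after quantile normalization and median centring in that order. Leaving out 1 array gave -0.26 to 0.49 for Kcne4, -0.33 to 0.45 for Kcnh1, -0.043 to 0.27 for Kcnk7, -0.024 to 0.50 for Kcnu1 and -0.38 to 0.52 for Kcnj8. On day 56 against day 43, Kcnj15 was at -0.23 with a pseudocount of 1, and Kcnh1 and Kcnu1 at -0.16 and -0.039 without the 3 arrays of high ratio. There, leaving out 1 array gave -0.086 to 0.55 for Kcnj15 and -0.046 to 0.51 for Kcnu1. The cause of these changes was not tested.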

Other observations

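With no filter on dim probe sets, 4 further potassium channel genes passed in some population contrast, although their probe sets lay above the median of at most 1 array. Kcnc4, a voltage-gated pore gene, was at 4.47, 4.25 and 5.09 across hair germ days 43, 56 and 69, against 5.91, 5.14 and 5.84 in bulge, a difference of -1.03 ± 0.26 (SE, limma adjusted p = 0.0301). Kcnh3 was higher in dermal papilla than in bulge by 0.97 ± 0.27 (limma adjusted p = 0.0282), and Kcnd2, the pore of the A-type channel Kv4.2, by 1.11 ± 0.31 (0.0259). Kcnab1, an auxiliary beta subunit gene, was lower in dermal papilla than in hair germ by a log2 of -0.77 ± 0.25 (limma adjusted p = 0.0476). In those fits 11.4% of all genes passed for hair germ against bulge, 22.1% for dermal papilla against bulge and 25.6% for dermal papilla against hair germ.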
